A study of Mus musculus with 18 samples.

Results

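CD8+ T cells from mouse spleen were exposed to small extracellular vesicles (sEVs) of leukemic or of healthy spleens, and their transcripts were measured on 6 of the 18 Clariom S mouse arrays of the study. The comparison was LME minus HCME. LME-sEVs came from the leukemic microenvironment in spleens of Eμ-TCL1 mice, in which the TCL1 oncogene is driven in B cells and a disease like chronic lymphocytic leukemia develops. HCME-sEVs came from the healthy control microenvironment of spleens. The sample titles mark these vesicles WT, for wild type, and the study describes such vesicles as isolated from C57BL/6 spleens. The recipient cells of both groups were sorted by antibody staining from spleens of the strain labelled Foxp3 YFP/cre, whose regulatory T cells carry a fluorescent reporter, and both groups received 10 ng/ml IL2 for 24 h. The labels give 50 ug/ml of vesicles for all samples, whereas the methods set the amount by the vesicle content of each kind of spleen, so dose and origin of the vesicles cannot be told apart. For the array cells the methods name IL2 and vesicles but no antibody against CD3 or CD28. They name both antibodies for their other cultures of CD8+ T cells. No array of CD8+ T cells without vesicles was analysed here. Each group had 3 arrays, and no source used here says whether the 3 came from separate mice or vesicle preparations, so p-values measure the spread between these arrays. The labels give no age or sex, and by the methods the mice were young adults of both sexes unless stated otherwise, matched within an experiment. Values are log2 signals of probe sets, and 3 values in a row are replicates 1, 2 and 3. Genes were described where the higher of the 2 group means exceeded 8.08, the 95th percentile of olfactory, vomeronasal and trace amine receptor probe sets, which stand for genes that T cells are not known to use. By this rule 8404 of 22206 probe sets were above background.

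CD8+ T cells recognize peptides on MHC class I molecules and kill infected or malignant cells with granules that hold perforin and granzymes. Naive cells circulate through lymphoid organs under the control of homing and egress receptors and survive on IL7. After stimulation they take up effector programs, and under lasting stimulation they gain inhibitory receptors. Interferons act on them through receptors that signal by JAK kinases to STAT proteins and IRF9, which bind elements in the promoters of interferon-stimulated genes. sEVs carry proteins and RNA of the cells that released them. The comparison asks which transcripts of CD8+ T cells differ between vesicles of leukemic and of healthy spleen.

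The cells carried the markers of their label. Cd8b1, the beta chain of the CD8 coreceptor, stood at 17.23, 17.05 and 17.27 on the HCME arrays and at 17.12, 17.02 and 17.10 on the LME arrays. Cd8a, the alpha chain, stood at 13.57, 13.66 and 13.34 and at 13.34, 14.18 and 13.53. Both were far above background on each array and overlapped between groups. Cd4 lay close above background, at 8.37 to 8.71 on HCME and 8.29 to 8.84 on LME arrays. None of 17 measured B cell markers and none of 15 measured monocyte and macrophage markers was above background. The summed linear signal of the B cell markers was 11.18 to 11.40 (log2) on HCME and 11.26 to 11.60 on LME arrays, and that of the monocyte and macrophage markers was 10.68 to 10.82 and 10.56 to 10.70. Pairs of arrays correlated at 0.962 to 0.973 within a group and at 0.962 to 0.974 between groups, so arrays of one group were no more alike than arrays of different groups. The array LME 2 had the lowest median over the receptor probe sets (6.22, against 6.33 to 6.48 on the others) and the widest span from that median to its upper decile (5.62, against 5.18 to 5.42).

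No probe set met the study's thresholds, an adjusted p below 0.05 with an absolute log2 fold change above 1, in the limma fit (0 of 22206, 0%). At an unadjusted p below 0.05, 441 probe sets were higher with LME-sEVs (1.99%) and 495 were lower (2.23%), 936 in all where 1110.3 would have that p if no probe set differed. The methods' t-test, which they name for figures in general and not for the arrays, also called 0 after Benjamini-Hochberg adjustment, with 917 below an unadjusted p of 0.05. The study, unlike the fit here, reports genes past its thresholds on arrays of CD8+ T cells treated for 24 h. The authors made those calls in the Transcriptome Analysis Console, whose settings are not given in the sources used here. Their calls were not used, and the cause of the difference was not tested. The lowest adjusted p was 0.0922 and the next 0.363. Above background, the 3 LME arrays all lay above the 3 HCME arrays in 427 of 8404 probe sets (5.08%) and all below in 428 (5.09%). With a difference of more than 1 log2 unit besides, 120 were higher (1.43%) and 93 lower (1.11%). The median within-group SD above background was 0.42 log2 units, and the median standard error (SE) of a difference was 0.30. An exact permutation test of 3 arrays against 3 cannot give a p below 0.1. The genes below are therefore described by their values on each array, and a group that does not overlap is read against the 5.08% and 5.09% over all probe sets.

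**Figure D1:**
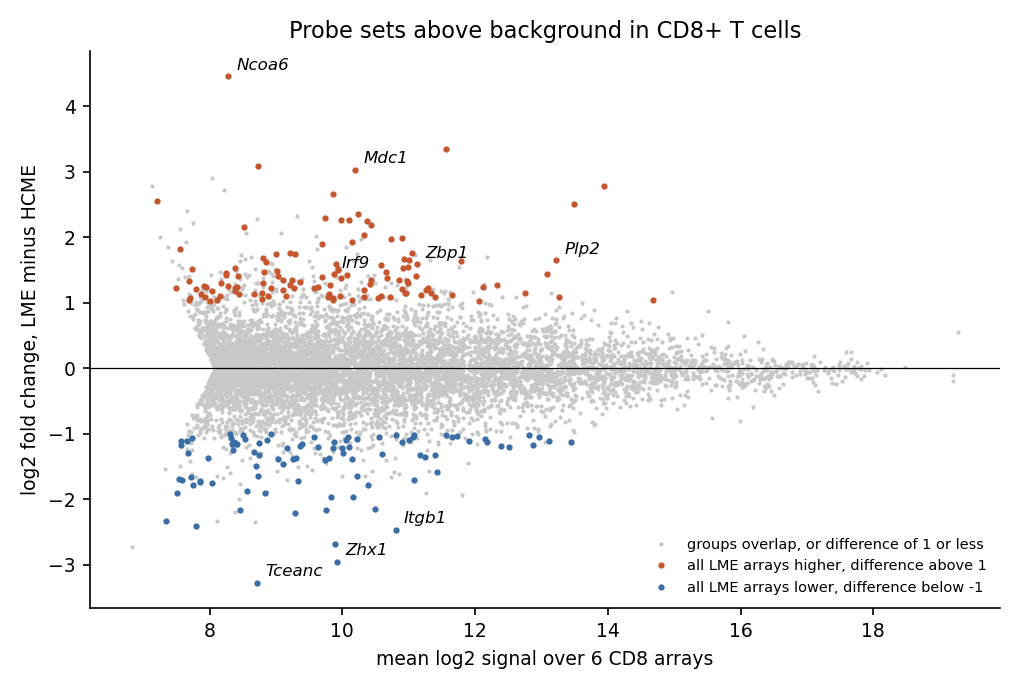
Log2 fold change (LME minus HCME) against mean log2 signal for the 8404 probe sets above background, 1 point each. Orange points are the 120 probe sets with all LME arrays higher and a difference above 1, blue points are the 93 with all LME arrays lower and a difference below -1, and gray points are the rest. Ncoa6 lies at 4.46 and Tceanc at -3.27, and most orange and blue points lie in the dimmer part of the signal range.

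Where a group lay below background on all its arrays, the fitted difference is no measured fold, and a bound was taken from the other group's mean and the background level. Such genes passed the filter only through the brighter group. Each fold given as "at least" is taken from observed means. It leaves out the spread between arrays and is no confidence limit. Where only some arrays of a group lay below background, the fitted difference includes values at that level and may not be an accurate fold. Among genes with 1 symbol whose groups did not overlap, Ncoa6, a coactivator of nuclear receptors, came first by fitted log2 fold change. It stood at 5.67, 7.07 and 5.40 on the HCME arrays, all below the background level, and at 11.59, 10.33 and 9.60 on the LME arrays. It was at least 5.37-fold higher with LME-sEVs (fitted 4.46 ± 0.62 SE, n = 3 per group, limma adjusted p = 0.538). Tsc22d1, a regulator of transcription induced by TGF-beta, stood at 7.29, 7.17 and 7.10 and at 11.59, 10.38 and 8.84, at least 4.56-fold higher (fitted 3.08 ± 0.63, adjusted p = 0.935). Here too every HCME array was below background and every LME array above it. Mdc1, a mediator of the DNA damage checkpoint, stood at 8.62, 8.12 and 9.30 and at 10.77, 13.27 and 11.10 (3.03 ± 0.68, adjusted p = 0.940). LME 2 was the highest of the 6 arrays for this gene.

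Further genes in this group were Ehmt1, a histone methyltransferase (2.66 ± 0.82), Cdk2, a kinase of the cell cycle (2.15 ± 0.50), and Top3b, a topoisomerase (2.25 ± 0.89). Cdk2 stood at 7.20, 6.94 and 8.18 on HCME arrays and at 8.61, 10.11 and 10.06 on LME arrays, with HCME 1 and HCME 2 below background. HCME 2 of Ehmt1 (6.63) and HCME 3 of Top3b (8.05) also lay below it. Bag5, a co-chaperone of heat shock proteins, stood at 9.20, 10.76 and 9.76 on HCME arrays and at 11.43, 11.67 and 12.56 on LME arrays. Igf2r, the receptor that carries mannose 6-phosphate tagged enzymes to lysosomes, stood at 8.57, 8.57 and 9.12 and at 10.23, 11.08 and 10.63 (1.89 ± 0.28, adjusted p = 0.553). The gap between the groups of Igf2r exceeded the range within each of them. Cdk5rap1, an enzyme that modifies mitochondrial tRNA, had the lowest p among genes that were higher, with 8.15, 7.78 and 7.96 against 9.73, 9.68 and 9.53 (1.68 ± 0.17, adjusted p = 0.363). HCME 2 and HCME 3 of Cdk5rap1 lay below background. Plp2, a membrane protein of the endoplasmic reticulum, stood at 12.73, 11.98 and 12.48 and at 13.96, 14.04 and 14.15 (1.65 ± 0.23, adjusted p = 0.538). Coro1a, an actin-binding protein that T cells need for survival and migration, stood at 8.82, 8.24 and 8.17 and at 9.76, 10.17 and 10.55 (1.75 ± 0.28, adjusted p = 0.597). Znrf3, a ubiquitin ligase that removes Wnt receptors from the cell surface, stood at 11.62, 11.53 and 11.96 and at 12.91, 13.11 and 12.89 (1.27 ± 0.18).

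Tceanc, which encodes a protein related to transcription elongation factor A, came last by fitted log2 fold change and had the lowest p of all probe sets. It stood at 10.33, 9.92 and 10.79 on the HCME arrays and at 7.04, 7.07 and 7.11 on the LME arrays. All LME values lay below background, so that it was at least 4.81-fold lower (fitted -3.27 ± 0.24 SE, limma adjusted p = 0.0922). Those LME values differed among themselves by far less than the HCME values did. Under the alternatives tried its adjusted p ran from 0.0617 to 0.998. Itgb1, the beta chain shared by integrins that bind extracellular matrix and VCAM1, stood at 12.07, 12.08 and 11.96 and at 10.67, 9.34 and 8.70 (-2.47 ± 0.47, adjusted p = 0.778). The HCME arrays were close to each other here, and the LME arrays were spread more widely. Itgb1 is also among the genes the study discusses for these cells.

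Zhx1, a zinc finger and homeobox repressor, stood at 11.62, 11.88 and 10.69 and at 9.03, 10.27 and 6.03 (-2.95 ± 1.02), so that LME 3 alone fell below background. Slc15a4, a transporter of lysosomes that signaling by endosomal Toll-like receptors requires, stood at 9.40, 11.31 and 10.49 and at 7.76, 7.94 and 8.85 (-2.22 ± 0.52), with LME 1 and LME 2 below background. Cbx3, a heterochromatin protein, stood at 10.89, 11.15 and 10.47 and at 8.67, 7.92 and 9.44 (-2.16 ± 0.40, adjusted p = 0.778), with LME 2 below background. Pik3cb, a catalytic subunit of phosphoinositide 3-kinase, stood at 10.44, 8.75 and 9.44 and at 6.47, 7.43 and 8.24 (-2.16 ± 0.57), with LME 1 and LME 2 below background. Septin11, a septin of the cytoskeleton, was at least 1.9-fold lower, with all LME values below background (fitted -2.42 ± 0.46). Ttc33, of which little is known, stood at 11.73, 11.54 and 11.44 and at 9.22, 9.10 and 9.92 (-2.16 ± 0.25, adjusted p = 0.538). Mrps25 and Mrpl27, proteins of the mitochondrial ribosome, had log2 fold changes of -1.79 ± 0.49 and -1.32 ± 0.21. Abcg2, an efflux transporter, stood at 8.32, 8.30 and 9.02 and at 6.77, 7.04 and 6.84, all below background, and was at least 1.38-fold lower (fitted -1.66 ± 0.24).

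**Figure D2:**
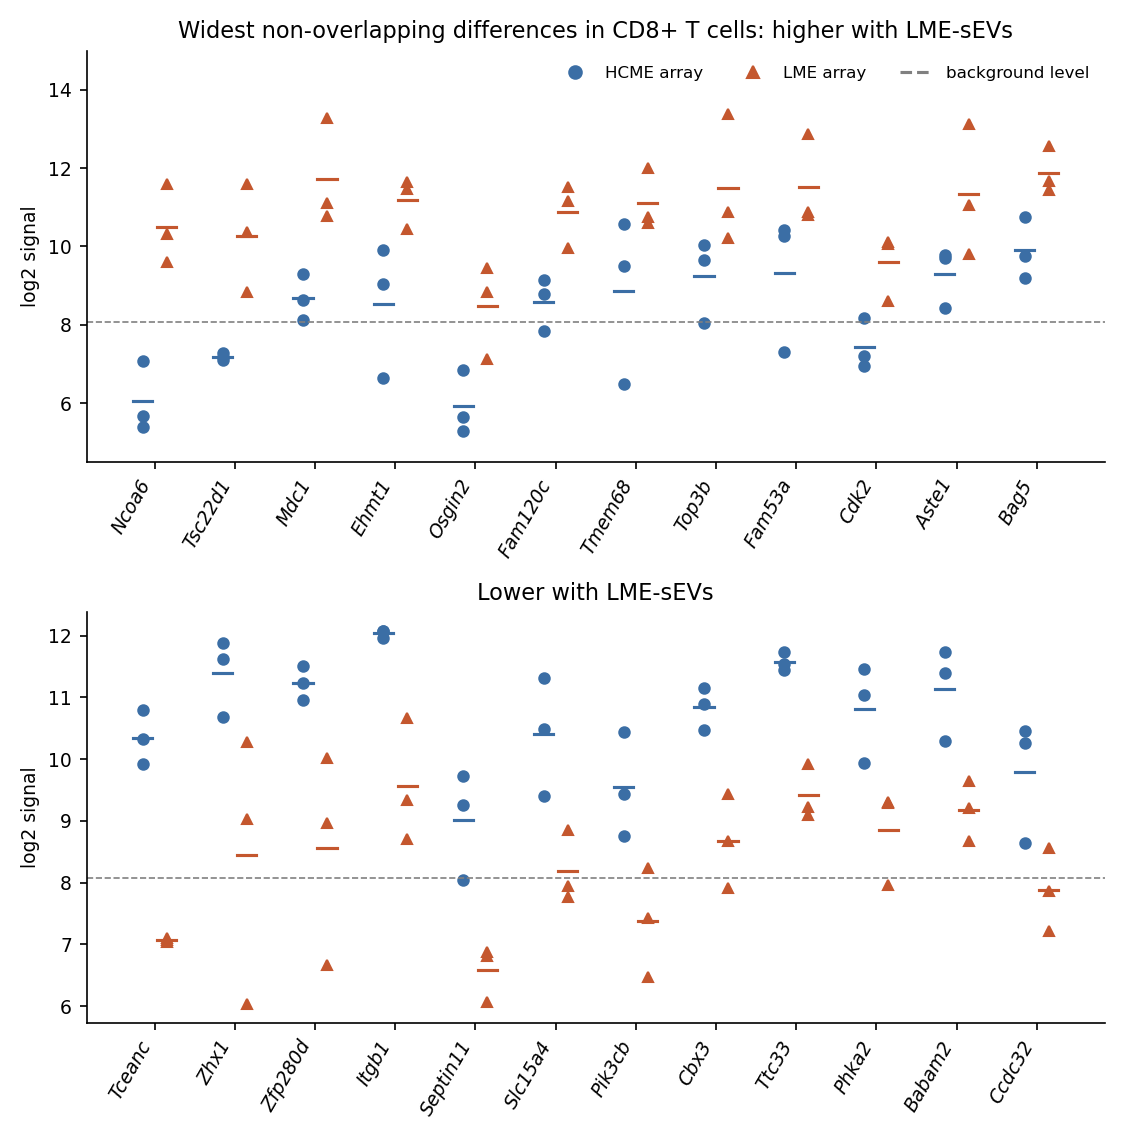
Log2 signal on each array for the 12 genes with the highest and the 12 with the lowest log2 fold change among named genes whose groups did not overlap. Blue circles are HCME arrays, orange triangles LME arrays, short bars group means (n = 3) and the dashed line the background level of 8.08. For Tceanc the 3 LME arrays lie within 7.04 to 7.11.

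Genes of the interferon response were examined in 3 lists. Of 19 sensors, receptors and transcription factors above background, 16 had a higher mean with LME-sEVs and 3 a lower one. All LME arrays were higher in 4 of the 19 and all lower in 0, against 5.08% and 5.09% over all probe sets above background. The median log2 fold change was 0.27, against -0.02 over all probe sets above background. The median was 0.48 without HCME 2, 0.44 without HCME 3 and 0.41 without LME 2. Zbp1, a sensor of Z-form nucleic acids that is itself induced by interferon, stood at 10.72, 10.33 and 9.92 on HCME arrays and at 12.04, 12.26 and 11.45 on LME arrays (1.59 ± 0.30, adjusted p = 0.778). Irf9, a transcription factor of the interferon response, stood at 8.68, 9.47 and 9.30 and at 11.27, 10.91 and 9.58 (1.44 ± 0.46, adjusted p = 0.998). LME 3 was only slightly above the highest HCME array for Irf9. Ifnar1, a chain of the type I interferon receptor, stood at 10.61, 10.66 and 10.83 and at 11.86, 11.12 and 11.33 (0.74 ± 0.23). Ifngr1, a chain of the interferon gamma receptor, stood at 12.19, 12.76 and 12.10 and at 13.12, 12.94 and 13.05 (0.69 ± 0.22). Sting1, which relays the sensing of cytosolic DNA, overlapped between groups (0.90 ± 0.40). Irf7 was below background on all arrays, between 3.85 and 5.5.

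Of 12 interferon-inducible GTPases above background, which attack the vacuoles of intracellular pathogens, 10 had a higher mean and the median log2 fold change was 0.56. All LME arrays were higher in 2 of the 12, where 5.08% of all probe sets above background were. Tgtp2 stood at 15.21, 14.81 and 15.20 on HCME arrays and at 16.07, 16.41 and 15.34 on LME arrays (0.87 ± 0.30). Irgm1 stood at 9.87, 9.59 and 9.95 and at 10.44, 11.04 and 10.38 (0.82 ± 0.23). Both were higher on every LME array, and LME 2 was the highest array for both. Iigp1 stood at 7.92, 9.41 and 7.35 and at 10.10, 10.47 and 8.67 (1.52 ± 0.65), and Gbp3 at 11.01, 9.25 and 9.18 and at 10.39, 11.81 and 10.57 (1.11 ± 0.59), with overlap in each. The shift of the GTPases depended on 1 array. Their median deviation from each gene's mean was 0.87 on LME 2, 0.12 on LME 1 and -0.18 on LME 3, and -0.32 to -0.11 on HCME arrays. Without LME 2 their median log2 fold change was 0.17, and without LME 3 it was 0.90. LME 2 was also the array with the widest signal span, and the part of that span in the shift was not tested.

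The third list, of antiviral effectors that interferon induces, was split. Of 31 members above background 18 had a higher and 13 a lower mean, all LME arrays were higher in 3 and lower in 1, and the median was 0.06. It was 0.025 without HCME 1, 0.18 without HCME 2, 0.19 without HCME 3, 0.11 without LME 3 and 0.0050 without LME 2. Slfn8, of the Schlafen family, stood at 11.15, 12.11 and 11.68 and at 12.40, 13.26 and 12.26 (0.99 ± 0.35). Samhd1, which depletes nucleotides that viruses need, stood at 12.77, 12.96 and 12.59 and at 13.47, 14.06 and 13.10 (0.77 ± 0.27). Rtp4 stood at 8.54, 9.06 and 8.97 and at 9.74, 10.08 and 9.19 (0.81 ± 0.28). Parp14, an ADP-ribosyltransferase, went the other way, with 9.84, 9.14 and 8.86 against 8.49, 8.68 and 8.33 (-0.78 ± 0.28). Over the 3 lists together, 44 of 62 members above background had a higher mean, all LME arrays were higher in 9 (Zbp1, Irf9, Ifnar1, Ifngr1, Tgtp2, Irgm1, Slfn8, Samhd1 and Rtp4) and lower in 1 (Parp14), where 5.08% and 5.09% of all probe sets were. At an unadjusted p below 0.05, 9 of the 62 were higher and 1 lower. Of the 8404 probe sets above background, 309 were higher and 325 lower at that p. None passed the adjusted threshold. The median over the 62 was 0.26, and leaving out each array in turn gave 0.14 (without HCME 1) to 0.29.

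Promoter windows of the members with the largest differences are shown because these genes are grouped by their response to interferon. The windows run from 250 bases before to 50 bases after the start of the gene (RefSeq, GRCm38.p6), read 5′ to 3′ on the gene's strand. Capitals mark matches, on either strand, to the core of the interferon-stimulated response element (GAAANNGAAA) or the STAT site (TTCNNNGAA). Zbp1 is named only, and Iigp1 is left out of this display. The window of Irf9 (chr14:55603735-55604034, plus strand) held no match, that of Gbp3 (chr3:142559794-142560093, plus strand) held 2 overlapping response element cores, and that of Slfn8 (chr11:83020761-83021060, minus strand) held 1.
Irf9: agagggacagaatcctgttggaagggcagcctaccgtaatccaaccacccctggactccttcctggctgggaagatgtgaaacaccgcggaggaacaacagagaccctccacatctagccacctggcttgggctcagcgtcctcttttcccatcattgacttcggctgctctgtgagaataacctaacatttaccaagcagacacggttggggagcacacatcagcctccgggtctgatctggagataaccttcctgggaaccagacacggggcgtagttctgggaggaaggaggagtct
Gbp3: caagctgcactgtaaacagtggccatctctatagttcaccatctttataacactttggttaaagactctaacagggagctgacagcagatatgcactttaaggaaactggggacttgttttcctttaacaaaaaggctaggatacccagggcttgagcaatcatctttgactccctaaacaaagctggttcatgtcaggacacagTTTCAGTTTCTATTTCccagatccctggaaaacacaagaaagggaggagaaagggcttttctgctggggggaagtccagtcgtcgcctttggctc
Slfn8: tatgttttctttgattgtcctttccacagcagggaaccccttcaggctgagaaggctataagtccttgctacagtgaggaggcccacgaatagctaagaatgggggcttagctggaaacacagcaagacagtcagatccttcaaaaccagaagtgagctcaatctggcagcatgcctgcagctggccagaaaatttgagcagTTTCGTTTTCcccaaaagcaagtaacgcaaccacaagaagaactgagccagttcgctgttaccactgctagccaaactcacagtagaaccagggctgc
The cores of Gbp3 lay at positions -45 to -36 and -39 to -30 from the start, and that of Slfn8 at -48 to -39. Among the promoter windows of 27025 genes, 3.49% held the response element core and 8.47% the STAT site. Of 48 interferon list members above background with a window, 25 held the core and 14 the STAT site. The 25 with the core had a median log2 fold change of 0.30, and the 23 without it 0.20. All LME arrays were higher in 3 of the 25 (12%) and in 4 of the 23 (17.4%). They were higher in 302 of all 6108 genes above background with a window (4.94%). Over all 213 genes above background whose window held the core, the median was 0.05. All LME arrays were higher in 16 of them (7.51%) and lower in 17. In the 5487 genes with neither motif the median was -0.02, with all LME arrays higher in 256 (4.67%) and lower in 280. A match describes letters in a window and not a bound site.

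MHC class I and antigen processing genes, which present peptides to CD8+ T cells and respond to interferon, had a higher mean in 16 of 21 members above background and a lower one in 4. All LME arrays were higher in 3 of the 21, where 5.08% of all probe sets above background were. The median was 0.31. H2-T10 stood at 13.21, 11.75 and 13.21 and at 13.75, 14.39 and 13.27 (1.08 ± 0.47). H2-T23, which encodes the nonclassical molecule Qa-1 seen by inhibitory receptors, stood at 10.54, 9.79 and 10.31 and at 10.84, 11.01 and 10.67 (0.63 ± 0.24). B2m, the light chain, stood at 17.40, 17.49 and 17.46 and at 17.54, 17.52 and 17.57, a difference of only 0.09 ± 0.15. Tapbpl, a peptide editor, overlapped (1.20 ± 0.56), as did Calr, a chaperone (1.01 ± 0.78). The median deviation was 0.50 on LME 2 and -0.27 on LME 3, while HCME 2 had -0.44. Without LME 2 the median log2 fold change was 0.03, and without HCME 2 it was 0.17.

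**Figure D3:**
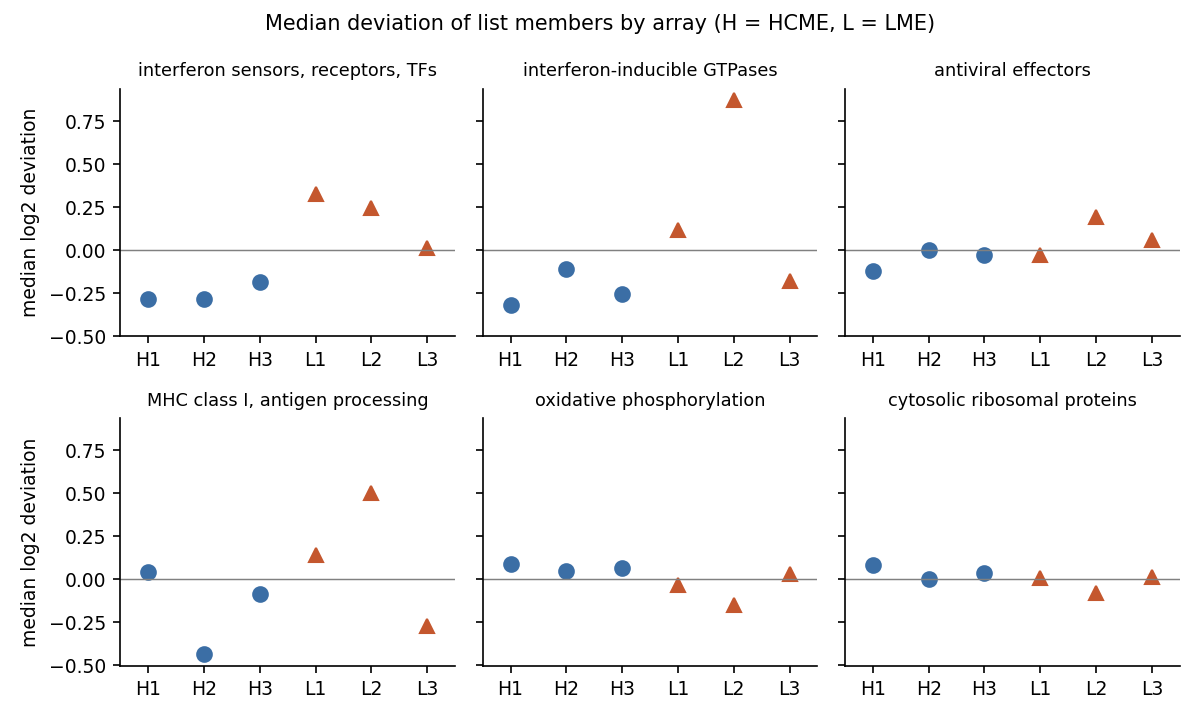
Median deviation (log2) of the members of 6 lists from each member's mean over the 6 arrays, for members above background. Blue circles are HCME arrays and orange triangles LME arrays. The interferon sensors, receptors and transcription factors (TFs) lie higher on all LME arrays, and the GTPases and MHC class I genes lie highest on LME 2.

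Genes of cytotoxic granules gave no common direction, with a higher mean in 4 and a lower one in 9 of 13 members above background and a median of -0.15. The median was 0.0017 without HCME 1, -0.26 without HCME 2 and -0.078 without LME 3. Gzmk, a granzyme of memory-like CD8+ T cells, stood at 10.58, 11.44 and 11.87 and at 11.93, 12.36 and 12.49 (0.96 ± 0.35) and was higher on every LME array, with HCME 3 close below LME 1. Gzmb, the main granzyme of killer cells, stood at 9.21, 9.20 and 10.72 and at 8.16, 8.51 and 10.37 (-0.70 ± 0.67). HCME 3 and LME 3 were the high arrays in both groups for Gzmb, and the groups overlapped. Srgn, the proteoglycan core of granules, stood at 14.06, 13.80 and 14.50 and at 13.63, 13.69 and 13.21 (-0.61 ± 0.24). Nkg7, a granule membrane protein, stood at 13.93, 13.54 and 13.73 and at 13.22, 13.32 and 13.37 (-0.43 ± 0.17). Both were lower on all LME arrays, 2 of the 13, and Gzmk was the 1 member higher on all. Over all probe sets above background the shares were 5.09% lower and 5.08% higher. Gzma overlapped (-0.43 ± 0.33). Prf1, the pore former perforin, was below background on all arrays, between 5.21 and 6.15, and so was Ifng, between 6.87 and 7.66.

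Killer lectin receptors, which sense MHC class I molecules on memory CD8+ T cells and NK cells, were above background in 6 members. Of these 3 had a higher and 3 a lower mean. All LME arrays were lower in 2 and higher in 0, where 5.09% and 5.08% of all probe sets above background were. The median was -0.05, running from -0.28 (without LME 3) to 0.24 (without LME 2). Klrc1, of an inhibitory receptor for Qa-1, stood at 9.59, 9.35 and 10.14 and at 9.73, 9.66 and 10.44 (0.25 ± 0.30) and overlapped. Klra7 stood at 12.35, 12.53 and 13.20 and at 11.09, 11.65 and 12.10 (-1.08 ± 0.33). Klra9 stood at 8.29, 8.30 and 8.36 and at 7.89, 7.32 and 7.56, all below background, at least 1.18-fold lower (fitted -0.73 ± 0.19, adjusted p = 0.95). The Klra genes are near-identical copies, and probe sets may not tell them apart, so Klra7 and Klra9 may not be separate results. Eomes, a transcription factor of memory cells, ran from 11.70 to 12.67 and from 10.85 to 11.95 (-0.76 ± 0.36), with overlap, and Xcl1, a chemokine that draws dendritic cells, at 11.78, 12.22 and 11.79 and at 10.83, 10.58 and 11.77 (-0.87 ± 0.33). The summed signal of 10 NK cell markers was 13.13 to 13.74 on HCME and 12.49 to 13.23 on LME arrays, with 5 above background (Eomes, Itga2, Klra9, Klre1 and Xcl1). The defining NK cell genes Ncr1, Klrb1c, Tyrobp and Fcer1g were not above background. In bulk RNA, fewer cells of a type and less RNA per cell cannot be told apart.

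Receptors named for exhaustion were at or below background. Pdcd1 lay between 6.08 and 6.69, Lag3 between 6.65 and 7.34, Tigit between 5.42 and 6.08 and Havcr2 between 5.57 and 6.62, all below background on every array. The 6 inhibitory receptors and ligands above background all had a lower mean with LME-sEVs, but none of them separated, and the median was -0.20. It was -0.34 without HCME 1, -0.31 without HCME 2, -0.32 without HCME 3 and -0.38 without LME 2. Nt5e, the ectoenzyme CD73, stood at 10.92, 11.42 and 11.28 and at 10.62, 11.07 and 10.48 (-0.48 ± 0.23). Among 18 costimulatory receptors 9 had a higher and 9 a lower mean. Slamf6, a marker of progenitor-like cells, stood at 15.11, 15.52 and 15.64 and at 14.71, 14.84 and 15.03 (-0.56 ± 0.20), and Ly9, of the same family, at 11.03, 10.40 and 11.21 and at 10.36, 10.03 and 10.15 (-0.70 ± 0.25). Both were lower on every LME array, 2 of the 18, where 5.09% of all probe sets above background were.

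Genes of the naive state stayed high in both groups. Il7r, the IL7 receptor, ran from 16.03 to 16.45 on HCME and from 16.13 to 16.20 on LME arrays (-0.12 ± 0.18). Lef1 ran from 14.81 to 14.90 and from 14.40 to 14.85 (-0.23 ± 0.18), and Ccr7 from 14.47 to 14.69 and from 14.03 to 14.81 (-0.22 ± 0.23). S1pr1, the receptor by which lymphocytes leave lymphoid organs, stood at 13.00, 13.07 and 13.26 and at 14.14, 13.81 and 14.37 (1.0 ± 0.20, adjusted p = 0.841). It was the only one of 19 members above background whose groups did not overlap. Over all probe sets above background, all LME arrays were higher in 5.08% and lower in 5.09%. Of 15 integrins and adhesion molecules above background, all LME arrays were higher in 1, Itgae (0.46 ± 0.18), and lower in 2, Itgb1 and Jaml (-0.80 ± 0.23). Ccne1, a cyclin for entry into the S phase, stood at 14.17, 14.15 and 13.70 and at 12.67, 12.79 and 13.17 (-1.13 ± 0.22, adjusted p = 0.805). Its partner Cdk2 was among the highest differences above, but the HCME mean of Cdk2, 7.44, lay below background.

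Subunits of oxidative phosphorylation, the mitochondrial chain that makes ATP, had a lower mean in 44 of 57 members above background and a higher one in 11. All LME arrays were lower in 6 and higher in 0, and the median was -0.11 (-0.04 without LME 2). The shares over all probe sets above background were 5.09% lower and 5.08% higher. Ndufs4, of complex I, stood at 13.93, 13.75 and 13.74 and at 12.87, 12.77 and 13.39 (-0.80 ± 0.21, adjusted p = 0.952). Atp5e, of the ATP synthase, stood at 12.47, 13.23 and 12.51 and at 11.74, 10.70 and 12.40 (-1.12 ± 0.45). Cytosolic ribosomal proteins were lower in 37 of 48 and higher in 11 (median -0.06, all LME arrays lower in 5 and higher in 1), and ribosome biogenesis genes lower in 16 of 21 and higher in 5 (median -0.17). Without LME 2 these medians were -0.031 and -0.05, and that of ribosome biogenesis was -0.095 without HCME 2 and -0.29 without LME 3. Rpl11 stood at 15.51, 15.32 and 15.25 and at 15.10, 14.82 and 14.94 (-0.41 ± 0.17). The median deviation of the oxidative phosphorylation genes was lowest on LME 2, at -0.15, the array with the widest signal span, and its part in the result was not tested.

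Of the 31 pathway lists, that of p53 response and apoptosis genes had the lowest median, at -0.39 over 10 members above background, with a higher mean in 3 and a lower one in 7. The median was -0.23 without HCME 2, -0.22 without HCME 3, -0.25 without LME 1 and -0.22 without LME 2. Bcl2, which keeps lymphocytes alive, was the 1 member lower on all LME arrays, at 14.61, 14.35 and 14.51 and at 13.86, 13.84 and 14.31 (-0.49 ± 0.20). Xiap, an inhibitor of caspases, had the largest difference but overlapped, at 10.53, 11.65 and 11.35 and at 9.97, 11.54 and 8.57 (-1.15 ± 0.73). Cytokines and chemokines came next, with a median of -0.28 over 10 members, of which 4 had a higher and 6 a lower mean. All LME arrays were lower in 2, Xcl1 and Mif, a cytokine that acts on macrophages (-0.59 ± 0.32). For both lists, the share lower on all LME arrays over all probe sets above background was 5.09%. That median was -0.017 without HCME 2, -0.14 without LME 1, -0.42 without LME 2 and -0.42 without LME 3. Ccl5, a chemokine of memory CD8+ T cells, overlapped (-0.98 ± 0.54).

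**Figure D4:**
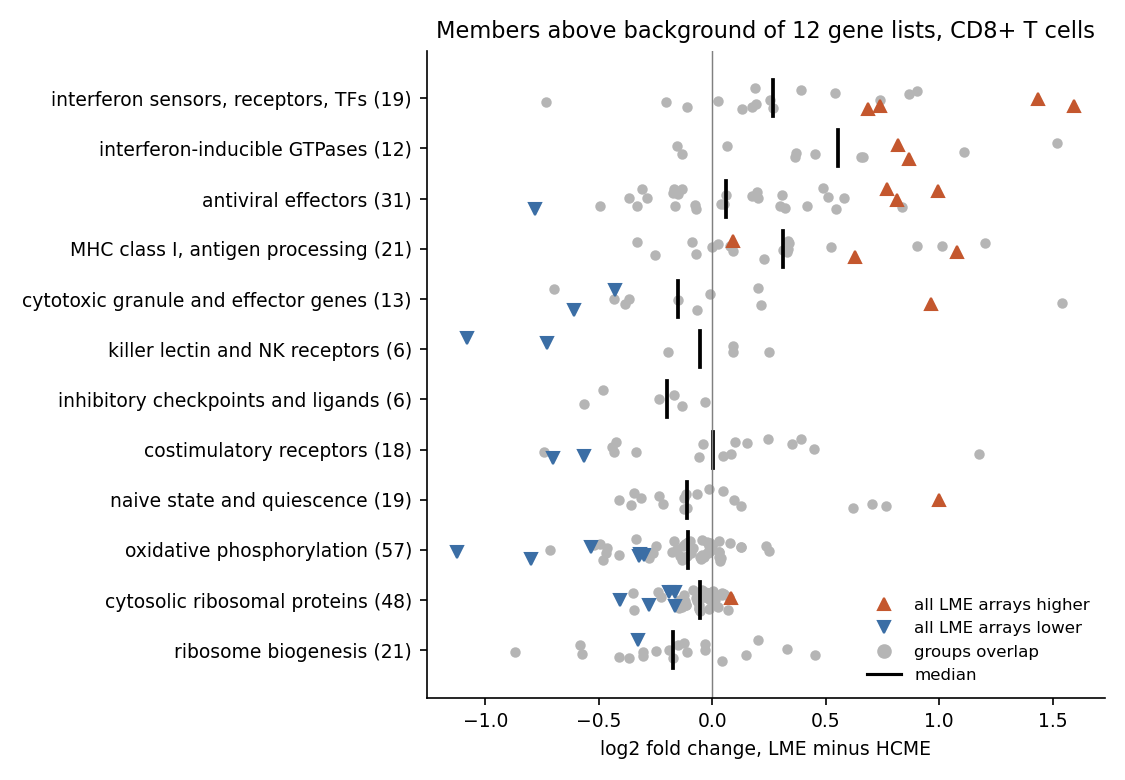
Log2 fold change (LME minus HCME) of every member above background in 12 gene lists, with the number of members in brackets. Orange triangles are members with all LME arrays higher, blue triangles members with all LME arrays lower, gray circles members whose groups overlap, and black bars list medians. Among these 12 lists the medians run from -0.20 for inhibitory checkpoints and ligands to 0.56 for interferon-inducible GTPases.

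The effect in CD8+ T cells was set beside that in CD4+ conventional T cells (CD4+ Tconv) and regulatory T cells (Treg), which were measured on 6 arrays each and share no array with it. The difference between the effects in CD8+ T cells and CD4+ Tconv passed an adjusted p of 0.05 in 0 of 22206 probe sets by limma (0%), with 1540 at an unadjusted p below 0.05 and a lowest adjusted p of 0.108. Without HCME 3 or without LME 2 it passed in 1. That between CD8+ T cells and Treg passed in 2 (0.00901%). One was Tnfrsf9, the costimulatory receptor 4-1BB, which stood below background in CD8+ T cells, at 7.70, 6.73 and 6.23 on HCME arrays and at 6.78, 6.86 and 6.72 on LME arrays. In Treg it stood at 9.41, 9.30 and 7.75 and at 14.12, 12.88 and 13.01, and the CD8+ effect minus the Treg effect was -4.62 (adjusted p = 0.0128). The other, without a gene symbol, stood at 10.60, 10.57 and 10.54 and at 10.13, 9.59 and 10.00 in CD8+ T cells and had a difference of -2.97. Neither was called when only the 12 arrays of both subsets were fitted, and 3 to 10 probe sets were called when 1 CD8 array was left out (6 without HCME 2, 4 without HCME 3, 10 without LME 2 and 8 without LME 3).

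Among the interferon-inducible GTPases, Tgtp2 had a log2 fold change of 0.87 ± 0.30 in CD8+ T cells, 1.5 ± 0.21 in CD4+ Tconv (adjusted p = 0.0330) and 2.54 ± 0.65 in Treg (adjusted p = 0.766). Iigp1 had 1.52 ± 0.65, 1.31 ± 0.32 and 1.81 ± 0.73, and Irgm1 had 0.82 ± 0.23, 0.73 ± 0.23 and 1.66 ± 0.55. All 3 genes had a higher mean with LME-sEVs in each subset, and their differences between subsets had adjusted p values of 0.591 to 0.982. Gbp3, of the same list, had 1.11 ± 0.59 in CD8+ T cells, -0.18 ± 0.23 in CD4+ Tconv and 0.29 ± 0.35 in Treg. In that order, the medians were 0.56, 0.22 and 0.55 over the 12 GTPases above background in CD8+ T cells. Over the 62 members of the 3 interferon lists they were 0.26, -0.17 and 0.40. Differences between these medians were not tested. Zbp1 had 1.59 ± 0.30 in CD8+ T cells, -0.21 ± 0.23 in CD4+ Tconv and 0.88 ± 0.34 in Treg, and Irf9 had 1.44 ± 0.46, 0.11 ± 0.20 and 0.21 ± 0.35. On all CD4+ Tconv arrays Irf9 lay below the background level set in CD8+ T cells, at 7.26 to 7.75. Its 0.11 in CD4+ Tconv is therefore not a measured effect, and whether Irf9 responds there was not tested. The difference of Zbp1 between CD8+ T cells and CD4+ Tconv had an adjusted p of 0.496. That of Irf9 had one of 0.700 and rests on those CD4+ Tconv arrays below background. S1pr1 had 1.0 ± 0.20, -1.10 ± 0.32 and 0.42 ± 0.27 (CD8+ minus CD4+, adjusted p = 0.458). Ncoa6 had 4.46 ± 0.62, -0.79 ± 0.30 and -2.28 ± 0.87. Its CD8+ effect minus its Treg effect was 6.74 (adjusted p = 0.0526) and its CD8+ effect minus its CD4+ effect 5.25 (adjusted p = 0.458). Both rest on CD8 HCME arrays below background. In CD4+ Tconv all arrays of Ncoa6 also lay below that level, at 5.87 to 7.58, so that its -0.79 is not a measured effect. In CD4+ Tconv the median over the probe sets above background in CD8+ T cells was -0.25, against 0.05 in Treg.

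**Figure D5:**
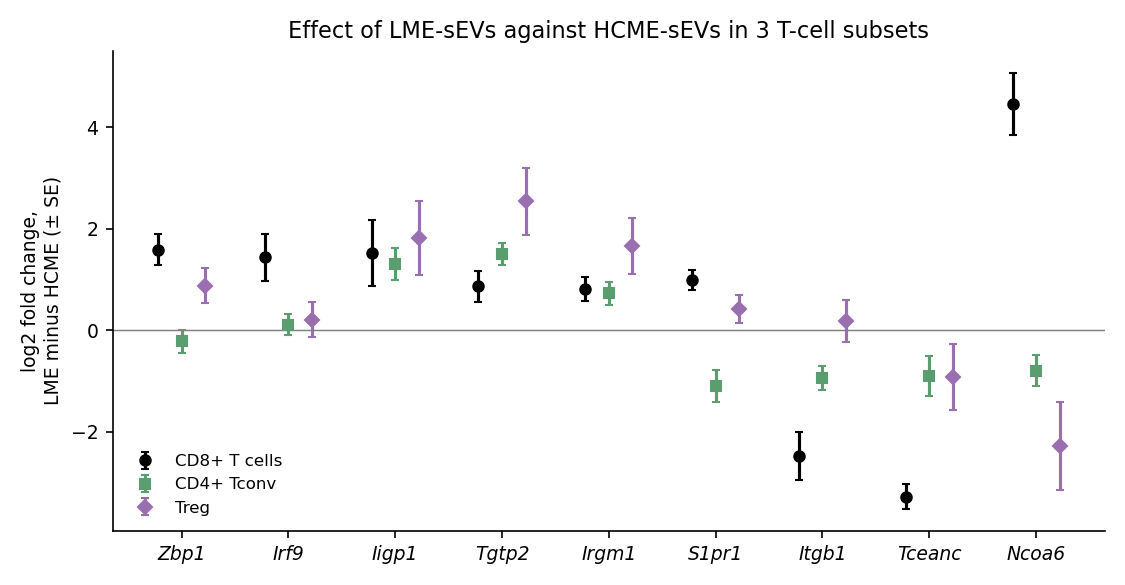
Log2 fold change (LME minus HCME) with its SE for 9 genes in CD8+ T cells (black circles), CD4+ Tconv (green squares) and Treg (purple diamonds), 3 arrays per group. Iigp1, Tgtp2 and Irgm1 lie above 0 in all 3 subsets, and Ncoa6 lies above 0 only in CD8+ T cells. A gene below background on all arrays of a subset, such as Ncoa6 in CD4+ Tconv, has no measured effect there.

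Of the genes the study discusses for CD8+ T cells treated with these vesicles, 31 were measured and 16 were above background. All LME arrays were higher in 2 of the 16 (Gzmk and Il10ra) and lower in 1 (Itgb1), and 0 passed the adjusted threshold. The shares over all probe sets above background were 5.08% higher and 5.09% lower. Il10ra, a chain of the IL10 receptor, stood at 9.77, 9.59 and 9.51 and at 9.94, 9.80 and 9.84 (0.24 ± 0.16). Tnfrsf4, the costimulatory receptor OX40, stood at 10.17, 10.66 and 10.05 and at 9.29, 10.14 and 9.23 (-0.74 ± 0.30), with overlap by a single pair of arrays. Cd69, an early activation marker, overlapped (0.60 ± 0.58), as did Icos, a costimulatory receptor (-0.42 ± 0.28). Il2 lay between 4.84 and 5.13 on all arrays, below background. Card6 stood at 8.09, 6.92 and 6.76 and at 6.51, 5.97 and 6.07, with both group means below background, so that its difference is not a measured one. The study names Itgb1, Card6 and Tnfrsf4 for cells of this time point, so that their direction here is not independent evidence. It discusses most of the others for later times, injected mice or proteins, which are unlike these samples. By the methods its other cultures of CD8+ T cells also held antibodies against CD3 and CD28, which are not named for the array cells.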

How the data were processed

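RNA of sorted CD8+ T cells was hybridized to Clariom S mouse arrays. The authors deposited log2 signals of probe sets, made from the array scans with their Transcriptome Analysis Console. The normalization method and genome build are not given in the sources used here, and labels and methods name different labeling kits. Precision is limited by the number of arrays. Groups came from sample titles. The 6 CD8 arrays were fitted with limma 3.58.1 in R 4.3.3 (lmFit, eBayes), and p-values of all 22206 probe sets were adjusted after Benjamini-Hochberg. Differences between subsets were contrasts over all 18 arrays. The platform annotation named 1 gene for 19572 probe sets and none for 2634. Where a gene had several, the one with the highest mean stood for it. Of 917 genes in the lists 816 were measured. Named genes were the 15 with the highest and the 15 with the lowest log2 fold change and the 5 with the lowest p each way (above background, groups not overlapping, predicted genes left out), up to 4 per list with the largest difference, and fixed marker, effector, interferon and study genes. Ifnar1, Ifngr1, Samhd1, H2-T23, B2m, Nkg7 and Bcl2 (list members whose groups did not overlap), the NK cell markers and Tnfrsf9 were added after their values were seen. The members, lists and tests were chosen with earlier results of these data known. The fits were tested on simulated data. Alternatives were other normalizations, filters, spreads and samples.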

Additional observations from a re-analysis of the deposited data

Results flagged for a closer look

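The effect of LME-sEVs against HCME-sEVs differed between CD8+ T cells and Treg for 2 probe sets, by the contrast of the 2 effects in limma. For Tnfrsf9 the effect in CD8+ T cells minus that in Treg was -4.62 (-0.10 in CD8+ T cells, 4.52 in Treg, adjusted p = 0.0128), and Tnfrsf9 lay below background on all 6 CD8 arrays, so that its CD8+ effect is not a measured one. For the probe set without a symbol the difference was -2.97 (-0.66 in CD8+ T cells, 2.31 in Treg, adjusted p = 0.0128). Without each CD8 array in turn the adjusted p was 0.0162 to 0.0444 for Tnfrsf9 and 0.0199 to 0.0444 for the other. With only the 12 arrays of both subsets fitted, 0 probe sets passed. Groups of 3 arrays were not searched for single far arrays.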

How the results depend on the processing

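The count of 0 probe sets past the study's thresholds held under each of the 16 alternatives run, including the removal of each array and no fold threshold. The count at an unadjusted p below 0.05, 936, became 455 when only probe sets above background were fitted, since fewer were tested, and stayed within 1.5 times under the others. The 213 probe sets with separate groups and a difference above 1 became 570 with a difference above 0.5, and 376 to 478 without each of the 6 arrays in turn, since 2 arrays separate from 3 more readily. The 0 probe sets that differed between CD8+ T cells and CD4+ Tconv became 1 with quantile normalization and 0 to 1 when an array was left out (1 without HCME 3 or LME 2). The 2 that differed between CD8+ T cells and Treg became 4 with cyclic loess, 4 with arrays centred on the median, 5 with array weights and 0 with only 12 arrays. Without each CD8 array in turn they were 3 to 10 (6 without HCME 2, 4 without HCME 3, 10 without LME 2 and 8 without LME 3). The cause was not tested.

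Of 90 genes named, 0 crossed the thresholds under any alternative run and 8 changed sign under at least 1. These were Cd8a (-0.088 to 0.33 over left-out arrays), Prf1 (-0.065 to 0.34), Klre1 (-0.062 to 0.33), Ncr1 (-0.10 to 0.87), Klrb1c (-0.96 to 0.17), Fcer1g (-0.18 to 0.33), Tnfrsf9 (-0.43 to 0.31) and Il2 (-0.13 to 0.018). With array weights Fcer1g was at -0.036 and Tnfrsf9 at 0.0085.

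Arrays with the same replicate number did not deviate together (correlations of their deviations 0.06, 0.02 and 0.06 above background), so the numbers were not taken as pairs. With a replicate block the counts were 0 past the thresholds, 1005 at an unadjusted p below 0.05, 0 for CD8+ minus CD4+ and 2 for CD8+ minus Treg.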
